A study of Mus musculus with 12 samples.

Results

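Respiratory chain assembly factors are proteins that help to build the complexes of oxidative phosphorylation (OXPHOS) without remaining in the finished enzyme. They were followed here in eWAT, the epididymal fat pad of mice, as the rows of the deposited expression table whose gene symbol matched a fixed set of names for factors of complex I, II, III and IV and of the ATP synthase. The rule found 43 of 23474 genes: complex I had 13 of them, complex II had 4, complex III had 6, complex IV had 18 and the ATP synthase had 2. Of these, 42 were matched by their GENCODE symbol and Coa8, which GENCODE lists as Apopt1, by its RefSeq symbol. The RNA-seq covered 12 libraries of eWAT from male C57BL/6J mice, 3 in each of 4 groups, all 17 weeks old after 12 weeks on their diet. The groups were fed a normal diet (ND), a high-fat diet (HFD), the HFD holding an ethanol extract of green tea at 0.25% by weight (GT) or the HFD holding the herbal formula Taeeumjowitang (also spelled Taeeumjowuitang) at 3% by weight (TJ). The ND group is thus the only group without the HFD, and GT and TJ differ in both the agent and its dose. The methods name 3 mice each for HFD and TJ, so the spread between those libraries is between mice. For ND and GT the sources used here do not say so, and their spread may be technical.

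The mitochondrial complexes are assembled from many subunits, some made inside the mitochondrion and most imported. Assembly factors hold a new subunit until its partners arrive, insert heme, copper, flavin or iron-sulfur clusters, or join preassembled modules, and loss of single factors is a known cause of inherited OXPHOS deficiency. White adipocytes have few mitochondria compared with brown ones, yet need them for fatty acid handling and for the maturation of the fat cell.

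Expression is given as FPKM, fragments scaled to transcript length and library depth, so that levels can be compared between genes. Differences are given on the log2(FPKM + 1) scale, which understates changes of low genes. A gene was called where limma's Benjamini-Hochberg adjusted p, taken over all tested genes, was under 0.05 and the fold change at least 1.5. A gene entered the test where its mean in the 6 compared libraries reached 1 FPKM. Ecsit, a complex I factor that also acts in innate immune signaling, was listed at 0 in all 12 libraries, and the other 42 members were tested in each comparison.

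ND replicate 1 stood apart from the other 11 libraries. Its 8 testis germ cell markers summed to 98971 FPKM against 0.685 to 2980.4 FPKM in the others, and the adipocyte marker Adipoq was at 202 FPKM there against 908 to 3738 FPKM elsewhere. Germ cell markers were also raised in ND replicate 3 and HFD replicate 1, at sums of 2980.4 and 2060.5 FPKM. The 8 epididymis epithelium markers summed to 14278 FPKM in ND replicate 1 and 1274.6 FPKM in HFD replicate 2, against 0.231 to 12.1 FPKM elsewhere. In HFD replicate 2 only Crisp1 (1172 FPKM) and Adam7 (102.8 FPKM) of these were raised, and the rest were at 0.19 FPKM or less. The comparison with ND is therefore given with and without ND replicate 1. The steps between small FPKM values correspond to roughly 10.5 to 19.7 M fragments per library, with ND replicate 1 the lowest, and FPKM give no counting error.

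The assembly factors spanned a wide range of levels. In the HFD libraries the lowest mean of a detected member was 2.09 ± 0.839 FPKM (SD, n = 3) for Sdhaf1 and the highest was 105.3 ± 8.2 FPKM for Cox17. The members together made up 0.135% to 0.19% of the summed FPKM in the 11 libraries other than ND replicate 1, where they made up 0.334%. TJ replicate 2 was the highest of all libraries for 12 of the 42 members, and ND replicate 1 was the highest for 17 and the lowest for 17. The median over members, relative to the HFD mean, was 0.19, 0.45 and 0.10 on the log2 scale in the 3 TJ libraries and between -0.02 and 0.06 in the 3 GT libraries. In HFD replicates 1, 2 and 3 it was 0.10, -0.06 and -0.03, so that HFD replicate 1 equalled TJ replicate 3. In ND replicates 1, 2 and 3 it was 0.25, 0.04 and -0.04.

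**Figure D1:**
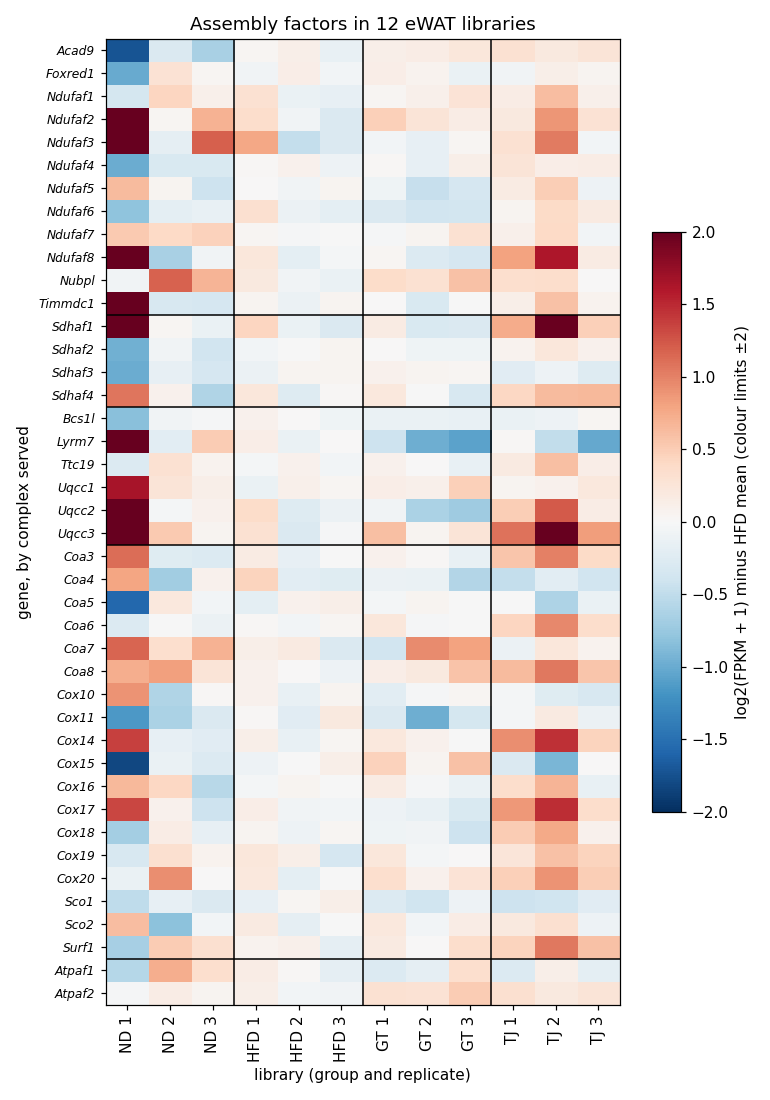
Each row is one of the 42 detected assembly factors, ordered by complex, and each column a library. Colour gives log2(FPKM + 1) minus the mean of the 3 HFD libraries, with limits at 2 in either direction. The TJ columns are mostly red, most deeply in TJ replicate 2, and the ND replicate 1 column departs furthest in both directions.

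TJ was added to the HFD, and the comparison with HFD asks what the formula changed in the fat of mice on the same diet. In TJ, 5 members rose: Uqcc3, Cox14, Coa8, Surf1 and Cox20. They are 11.9% of the 42 members, against 7.41% of all 12807 tested genes called higher, and 0 members were called lower, against 11.1% of all tested genes. The median log2 fold change was 0.25 over the members and -0.14 over all tested genes. A value above 0 was found for 33 members, beside 40.8% of all tested genes. The TJ libraries all lay above HFD for 18 members and all below it for 1, beside 20.1% and 31.4% of all tested genes. At an unadjusted p under 0.05 there were 12 members, all higher, beside 41.4% of all tested genes in either direction. With median-of-ratios scaling the median of all genes moved to -0.03, the calls over all genes from 949 higher and 1417 lower to 1229 and 1177, and the members' median to 0.38.

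Uqcc3, which stabilizes newly made cytochrome b in the early assembly of complex III, had the highest log2 fold change. It measured 18.4, 11.9 and 14.4 FPKM in the HFD libraries and 32.1, 61.6 and 27.0 FPKM in the TJ libraries. In GT it measured 22.7, 15.4 and 17.8 FPKM, and in ND 93.4, 21.6 and 15.3 FPKM. All TJ libraries lay above all HFD and GT libraries, while ND replicate 1 was higher than any of them. The log2 fold change of TJ against HFD was 1.30 ± 0.32 (SE; limma adjusted p = 0.0366).

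Cox14 and Coa3 bind newly made COX1, the core subunit of complex IV, and start its assembly. Cox14 measured 36.9, 30.5 and 34.7 FPKM in HFD and 65.2, 95.1 and 46.6 FPKM in TJ. In GT it measured 39.4, 36.2 and 33.9 FPKM, and in ND 88.7, 30.3 and 28.9 FPKM. The TJ values did not overlap those of HFD or GT, and the log2 fold change against HFD was 0.94 ± 0.25 (SE; limma adjusted p = 0.0435). Coa3 averaged 33.5 ± 3.89 FPKM in HFD, 33.1 ± 2.88 in GT and 54.0 ± 12.8 in TJ, with ND between 27.4 and 73.1 FPKM. Its log2 fold change of 0.65 missed the threshold (limma adjusted p = 0.0524).

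Surf1, whose loss causes a form of Leigh syndrome, acts on COX1 at about the step where heme A is inserted. It measured 33.6, 34.4 and 28.1 FPKM in HFD and 43.9, 67.3 and 48.6 FPKM in TJ. GT lay at 36.2, 32.2 and 41.1 FPKM and ND at 19.9, 45.6 and 40.2 FPKM. TJ was higher than HFD in every library, by 0.70 ± 0.19 on the log2 scale (SE; limma adjusted p = 0.0438). Cox10 and Cox15 make heme A from heme B. Cox10 averaged 4.71 ± 0.52 FPKM in HFD, 4.47 ± 0.474 in GT and 3.97 ± 0.511 in TJ, with ND between 2.75 and 9.57 FPKM.

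Cox15 measured 7.79, 8.41 and 9.21 FPKM in HFD, 6.76, 4.04 and 8.46 in TJ and 12.0, 8.81 and 13.1 in GT. It was at 1.67, 7.62 and 6.78 FPKM in ND. TJ and HFD overlapped, and the log2 fold change of -0.40 did not pass the test (limma adjusted p = 0.235). Cox15 shares its locus with Entpd7 and Cutc on the opposite strand, and since the methods name no strand setting and leave the unnamed options of Cufflinks at their defaults, which use no strand, reads of overlapping genes cannot be told apart by strand.

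Cox20 escorts COX2, a copper-carrying subunit of complex IV. It measured 20.5, 15.2 and 17.4 FPKM in HFD and 24.9, 33.5 and 25.1 FPKM in TJ. GT lay at 22.5, 18.8 and 21.5 FPKM and ND at 16.0, 34.5 and 17.6 FPKM. TJ exceeded HFD in every library, by 0.62 ± 0.17 on the log2 scale (SE; limma adjusted p = 0.0468). Cox18, which moves the tail of COX2 across the inner membrane, averaged 5.83 ± 0.434 FPKM in HFD, 5.04 ± 0.776 in GT and 8.51 ± 2.16 in TJ, with ND from 3.265 to 6.57 FPKM (TJ against HFD, limma adjusted p = 0.119). Cox16, another COX2 factor, averaged 46.4 ± 1.62 FPKM in HFD, 46.5 ± 4.93 in GT and 58.5 ± 16.5 in TJ, with ND from 31.2 to 72.9 FPKM. Cox20 overlaps Hnrnpu, and Surf1 overlaps Surf2, each on the opposite strand.

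Coa8, a complex IV factor whose loss causes a leukoencephalopathy, had the smallest adjusted p of the members. It measured 27.0, 25.4 and 23.4 FPKM in HFD and 39.7, 53.3 and 37.7 FPKM in TJ. GT lay at 27.9, 29.0 and 38.1 FPKM and ND at 42.4, 45.3 and 30.4 FPKM. Every TJ, GT and ND library lay above every HFD library. The log2 fold change of TJ against HFD was 0.75 ± 0.16 (SE; limma adjusted p = 0.031). Coa8 overlaps Gm15995 on its own strand and Gm15996 on the opposite strand.

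**Figure D2:**
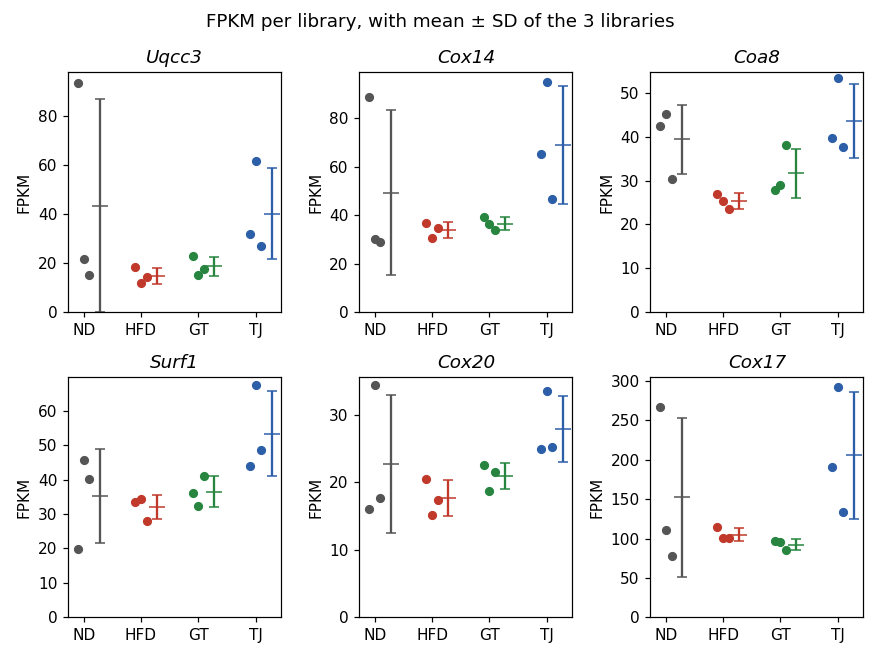
FPKM of the 5 members called in TJ against HFD and of Cox17, with a point per library and the mean ± SD of the 3 libraries of each group beside it. The TJ points lie above all HFD points in each panel, and TJ replicate 2 is the highest TJ library in each.

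The genes of the 5 called members are, in GRCm38, Uqcc3 (ENSMUSG00000071654) at chr19:8880014-8880923 on the minus strand, Cox14 (ENSMUSG00000023020) at chr15:99725618-99728136 on the plus strand and Coa8 (ENSMUSG00000037787) at chr12:111713261-111755053 on the plus strand. Surf1 (ENSMUSG00000015790) lies at chr2:26913381-26916530 on the minus strand and Cox20 (ENSMUSG00000026500) at chr1:178319130-178322693 on the plus strand. Their promoters were searched for core letters of factors known to act on genes of mitochondrial proteins, in the 250 bases before and 50 bases after the start site of RefSeq (GRCm38.p6). The letters were CCGGAAG for the ETS family, which includes GABPA, ATGGCGG for YY1, GCATGCG for NRF1 and AAGGTCA for the estrogen-related receptors, on both strands. RefSeq gave a promoter for 38 of the 43 members and none for Acad9, Cox18, Cox17, Coa6 and Ndufaf6. The sequences below are shown because they hold every match in the called members, with the matched letters in capitals and 30 bases each, read 5′ to 3′ on the strand of the gene.
Coa8, YY1 and ETS letters, chr12:111713289-111713318: ggccATGGCGGctttgcggcCCGGAAGcag
Cox14, ETS letters, chr15:99725638-99725667: gagagaggtagaagCCGGAAGttcaaggct
Cox20, ETS letters on the opposite strand, chr1:178319039-178319068: gccagggcgggCTTCCGGacagccccagga
Cox20, YY1 letters, chr1:178319159-178319188: gactggtgcccATGGCGGccgccccggagc
Surf1, ETS letters on the opposite strand, chr2:26916510-26916539: ctggccctactCTTCCGGtcacggttctct
Uqcc3, letters of the estrogen-related receptors, chr19:8881052-8881081: gaaattgaaccAAGGTCAtttgggagagct

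The ETS letters were found in 17 of the 38 members with a promoter (44.7%), against 9.93% of all 27025 genes with a promoter and 19.6% of the 9964 such genes tested in TJ against HFD. The YY1 letters were found in 10 members (26.3%), against 4.69% and 9.16%. The NRF1 letters were in 3 members (7.89%; 4.01% and 7.08%), and those of the estrogen-related receptors in 1 member, Uqcc3 (2.63%; 5.38% and 4.00%). These are matches of letters and not sites of binding.

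Copper is brought to complex IV by Cox17, Sco1, Sco2, Coa6, Cox11 and Cox19. Cox17, the copper donor of Sco1, Sco2 and Cox11, was the most abundant member in HFD and measured 114.7, 100.4 and 100.6 FPKM in HFD and 191.5, 293 and 133.8 FPKM in TJ. In GT it measured 97.3, 95.2 and 85.1 FPKM, and in ND 267, 111 and 78.4 FPKM. All TJ libraries were above HFD and all GT libraries below it, but the log2 fold change of TJ against HFD, 0.89, missed the threshold (limma adjusted p = 0.0581). Cox17 overlaps Gm21987 on its own strand.

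Coa6, which acts with Sco1 and Sco2 on COX2, averaged 11.8 ± 0.471 FPKM in HFD, 12.5 ± 1.39 in GT and 18.6 ± 4.77 in TJ, with ND from 9.64 to 11.8 FPKM (TJ against HFD, limma adjusted p = 0.0594). Cox19, a partner of Cox11, averaged 23.0 ± 4.67 FPKM in HFD, 23.9 ± 2.53 in GT and 30.9 ± 3.85 in TJ, with ND from 17.9 to 28.6 FPKM. Of the other 3 copper genes, Sco1 had lower values in TJ, and TJ overlapped HFD for Sco2 and Cox11. Sco1 averaged 3.91 ± 0.469 FPKM in HFD, 3.11 ± 0.436 in GT and 2.85 ± 0.28 in TJ, with ND from 2.44 to 3.36 FPKM, and was the only member whose TJ libraries all lay below HFD (limma adjusted p = 0.139). Sco2, which overlaps Tymp on the same strand, averaged 11.0 ± 1.46 FPKM in HFD, 11.8 ± 1.18 in GT and 12.2 ± 1.92 in TJ, with ND from 5.73 to 17.3 FPKM. Cox11, which hands copper to COX1, measured 3.49, 2.75 and 4.05 FPKM in HFD, 2.58, 1.23 and 2.43 in GT and 3.27, 4.00 and 3.06 in TJ, with 0.988, 1.83 and 2.59 FPKM in ND.

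The remaining complex IV factors are small proteins of the intermembrane space or of less defined role. Coa4 measured 7.13, 4.18 and 4.06 FPKM in HFD, 4.52, 4.46 and 3.00 in GT and 3.30, 4.13 and 3.56 in TJ, with 9.34, 2.70 and 5.36 FPKM in ND. Coa5 averaged 52.0 ± 6.05 FPKM in HFD, 52.1 ± 1.77 in GT and 44.1 ± 9.47 in TJ, with ND from 16.7 to 60.4 FPKM. Neither passed the test in TJ against HFD (limma adjusted p = 0.242 for Coa4 and 0.342 for Coa5). Coa7 averaged 3.90 ± 0.806 FPKM in HFD, 6.17 ± 3.04 in GT and 4.08 ± 0.607 in TJ, with ND from 5.12 to 9.90 FPKM. Of the 18 complex IV factors, 4 (22.2%) were called higher in TJ and 0 lower, beside 7.41% and 11.1% of all tested genes. Their median log2 fold change was 0.36, beside -0.14 over all tested genes.

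Of the 6 complex III factors, 1 (16.7%) was called higher in TJ against HFD, Uqcc3, and 0 lower, beside 7.41% and 11.1% of all tested genes. Differences between these factors were not tested. Uqcc1 and Uqcc2 bind cytochrome b as it is made. Uqcc2 measured 56.1, 35.9 and 39.8 FPKM in HFD, 41.1, 27.3 and 26.0 in GT and 60.9, 102.6 and 47.7 in TJ, so that TJ and HFD overlapped (limma adjusted p = 0.163). Uqcc1 averaged 25.1 ± 2.07 FPKM in HFD, 30.04 ± 4.56 in GT and 27.3 ± 1.52 in TJ, with ND from 27.3 to 80.9 FPKM. The Rieske iron-sulfur protein is chaperoned by Lyrm7 and inserted by Bcs1l, and Ttc19 clears its fragments. Lyrm7 had the lowest log2 fold change of the members, -0.50, with 4.24, 3.37 and 3.82 FPKM in HFD, 3.85, 2.41 and 1.35 in TJ and 2.58, 1.44 and 1.30 in GT. TJ overlapped HFD for Lyrm7 (limma adjusted p = 0.202). Bcs1l averaged 6.78 ± 0.47 FPKM in HFD, 6.06 ± 0.0387 in GT and 6.46 ± 0.469 in TJ, with ND from 3.36 to 6.61 FPKM. Ttc19 averaged 5.74 ± 0.35 FPKM in HFD, 5.67 ± 0.559 in GT and 7.39 ± 1.55 in TJ, with ND from 4.57 to 7.29 FPKM.

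Complex II is built by Sdhaf2, which helps to attach flavin to Sdha, by Sdhaf4, which helps the flavin-bearing Sdha to join Sdhb, and by Sdhaf1 and Sdhaf3, which protect the iron-sulfur subunit Sdhb. Sdhaf1 measured 3.04, 1.76 and 1.46 FPKM in HFD and 4.04, 10.9 and 3.22 FPKM in TJ, with 2.398, 1.45 and 1.47 FPKM in GT and 17.8, 2.095 and 1.75 FPKM in ND. All TJ libraries were above HFD, with TJ replicate 2 far above the others, and the log2 fold change was 1.07 (limma adjusted p = 0.0963). Sdhaf4 averaged 20.5 ± 3.56 FPKM in HFD, 20.04 ± 3.84 in GT and 30.6 ± 2.82 in TJ, with ND from 13.0 to 43.5 FPKM. Its adjusted p in TJ against HFD was 0.0492 by limma and its log2 fold change of 0.57 lay just under the 0.58 of a 1.5-fold change, so it was not called. Sdhaf2 averaged 14.4 ± 0.573 FPKM in HFD, 13.8 ± 0.52 in GT and 15.8 ± 0.951 in TJ, with ND from 6.88 to 13.7 FPKM. Sdhaf3 averaged 2.86 ± 0.266 FPKM in HFD, 3.02 ± 0.0542 in GT and 2.36 ± 0.203 in TJ, with ND from 0.944 to 2.43 FPKM.

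No complex I factor was called in TJ against HFD, although the 12 log2 fold changes were all above 0, from 0.04 to 0.86 with a median of 0.24. Of all tested genes, 40.8% had a change above 0, and their median was -0.14. Ndufaf1, Acad9 and Timmdc1 work with Ecsit on the membrane arm. Acad9 measured 32.5, 34.6 and 28.5 FPKM in HFD, 34.6, 35.4 and 37.2 in GT and 39.5, 36.4 and 38.1 in TJ, and 8.95, 25.9 and 20 FPKM in ND. Its TJ libraries all exceeded HFD, by 0.25 on the log2 scale (limma adjusted p = 0.177). Ndufaf1 averaged 11.3 ± 2.33 FPKM in HFD, 12.5 ± 1.13 in GT and 14.1 ± 3.12 in TJ, with ND from 8.55 to 15.3 FPKM. Timmdc1 averaged 10.8 ± 0.792 FPKM in HFD, 10.1 ± 1.35 in GT and 13.3 ± 2.94 in TJ, with ND from 8.35 to 57.3 FPKM.

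Ndufaf3 and Ndufaf4 act early, on the arm that binds ubiquinone. Ndufaf3 measured 20.1, 7.93 and 9.11 FPKM in HFD, 11.0, 10.0 and 11.7 in GT and 14.3, 24.4 and 10.9 in TJ. The groups overlapped, and HFD replicate 1, which carried germ cell markers, was the highest HFD library. Ndufaf4 averaged 5.42 ± 0.397 FPKM in HFD, 5.39 ± 0.638 in GT and 6.25 ± 0.361 in TJ, with ND from 2.22 to 4.19 FPKM. Ndufaf2, a chaperone of late assembly, measured 25.3, 18.6 and 15.8 FPKM in HFD, 27.5, 23.6 and 21.7 in GT and 22.4, 36.7 and 24.0 in TJ.

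Ndufaf5 hydroxylates and Ndufaf7 methylates an arginine of the core subunits, and Ndufaf8 is the partner of Ndufaf5. Ndufaf8 averaged 9.56 ± 1.55 FPKM in HFD, 8.24 ± 1.31 in GT and 19.7 ± 10.5 in TJ, where TJ replicate 2 reached 31.2 FPKM and TJ replicate 3 10.7 FPKM (limma adjusted p = 0.109). Ndufaf5 averaged 5.68 ± 0.282 FPKM in HFD, 4.48 ± 0.722 in GT and 6.70 ± 1.63 in TJ, with ND from 4.02 to 9.34 FPKM. Ndufaf7 averaged 7.83 ± 0.237 FPKM in HFD, 8.55 ± 1.16 in GT and 8.85 ± 1.59 in TJ, with ND from 10.7 to 11.7 FPKM. Ndufaf6, needed for the part that holds ND1, averaged 5.12 ± 1.22 FPKM in HFD, 3.75 ± 0.171 in GT and 6.01 ± 0.799 in TJ, with ND from 2.46 to 4.48 FPKM. Nubpl, which delivers iron-sulfur clusters, averaged 4.93 ± 0.72 FPKM in HFD, 6.94 ± 0.794 in GT and 6.00 ± 0.894 in TJ. Foxred1, a flavoprotein, averaged 24.7 ± 1.98 FPKM in HFD, 25.1 ± 2.47 in GT and 25.4 ± 1.76 in TJ, with ND from 11.7 to 30.5 FPKM.

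The 2 factors of the ATP synthase attend its catalytic head, Atpaf1 on the beta and Atpaf2 on the alpha subunit. Atpaf2 averaged 39.7 ± 2.95 FPKM in HFD, 51.3 ± 4.46 in GT and 47.7 ± 2.11 in TJ, with ND from 38.9 to 43.9 FPKM. All TJ and GT libraries lay above HFD, with limma adjusted p of 0.15 and 0.0856. Atpaf1 averaged 7.85 ± 0.987 FPKM in HFD, 7.73 ± 2.05 in GT and 7.18 ± 1.25 in TJ, with ND from 4.93 to 13.5 FPKM.

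**Figure D3:**
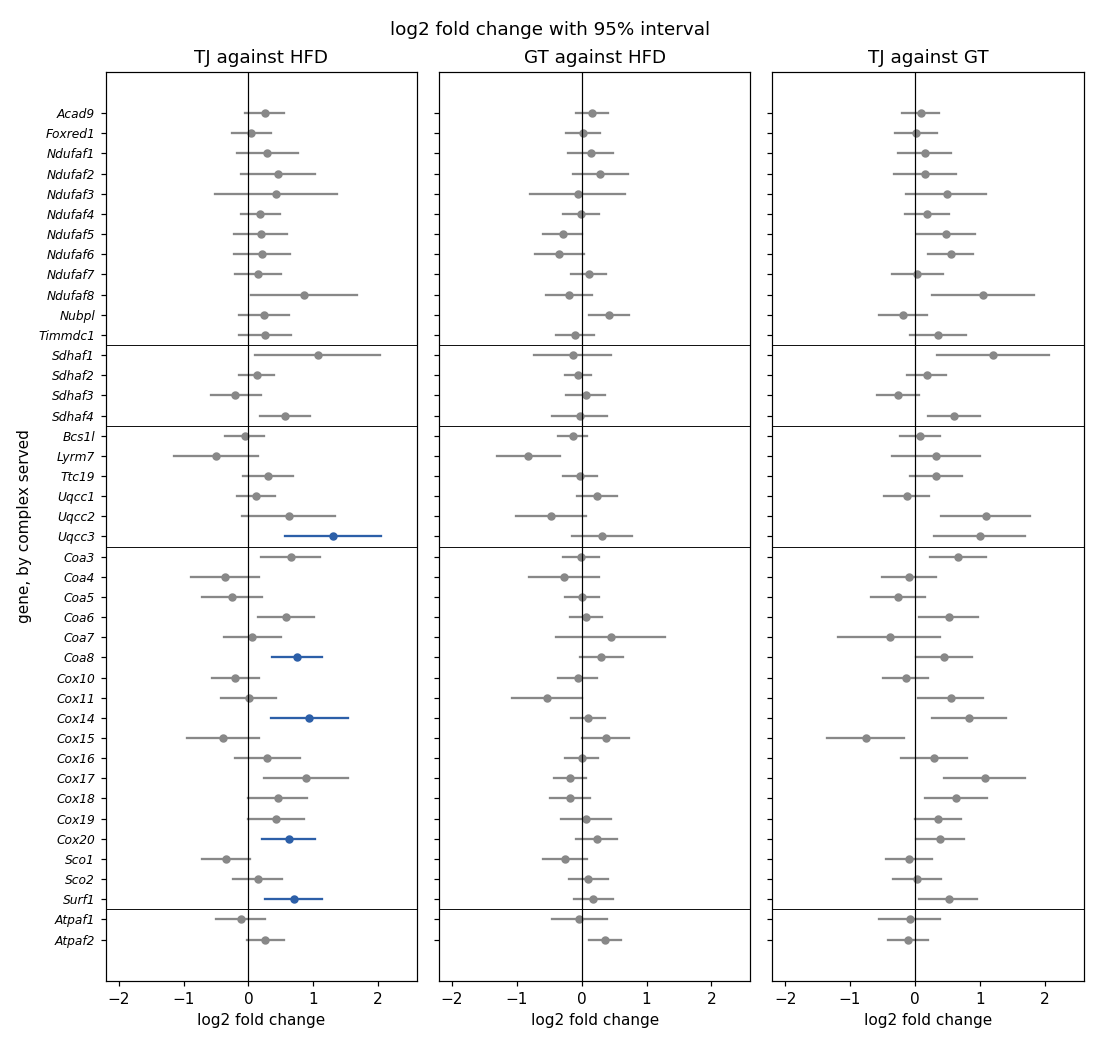
Log2 fold change of each of the 42 tested members, by complex, with its 95% interval from limma, for TJ against HFD, GT against HFD and TJ against GT. Blue marks the 5 called members, which appear only in the first panel, and the comparisons share libraries with each other.

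Cell type markers moved with the TJ comparison. The 8 adipocyte markers summed to 17234 to 19646 FPKM in HFD and to 29305 to 59285 FPKM in TJ, with TJ replicate 2 the highest. Fabp4 made up most of this sum, at 48299 FPKM in TJ replicate 2, and of the 8 markers 5 were called higher. Lep ran the other way, at 899, 1196 and 1186 FPKM in HFD and 719, 292 and 825 FPKM in TJ. The 9 macrophage markers summed to 2959 to 4135 FPKM in HFD and to 724 to 2149 FPKM in TJ, with TJ replicate 2 the lowest, and 8 of the 9 were called lower. The 6 stromal markers summed to 1731 to 1868 FPKM in HFD and to 695 to 997 FPKM in TJ, and 4 were called lower. The 8 testis germ cell markers all had lower values in TJ, their median log2 difference was -3.49, and 0 were called. In GT the adipocyte sum was 24059 to 27622 FPKM and the macrophage sum 1222 to 2696 FPKM. No marker of either list was at 0 in all libraries. In bulk tissue, fewer cells of a type and less RNA per cell cannot be told apart, and the part of cell composition in the member values was not tested. Without TJ replicate 2, Coa8, Cox14 and Uqcc3 were called, 3 members in all, and the median of the members was 0.13. In that fit 797 of all 12869 tested genes were called higher and 1226 lower.

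The calls also depended on other libraries and settings. Without any single HFD library, or without TJ replicate 1, 0 members were called, with 9 to 16 members at an unadjusted p under 0.05, and limma then called 0 of all tested genes too. Without TJ replicate 3, 9 members were called higher, and of all 12873 tested genes 1245 were called higher and 2167 lower.

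Transcript length varied with the change. The longest annotated transcript had a median of 2206 nt for the tested members and 3288 nt for all tested genes with a length. In TJ against HFD, the 8 members of up to 1000 nt had a median change of 0.64 (log2). They include 3 of the 5 calls, and all 692 tested genes of that length had a median of 0.42. The 12 members of over 1000 and up to 2000 nt had a median of 0.23 against 0.21 for all such genes, the 9 of over 2000 and up to 3000 nt 0.24 against -0.03, and the 13 above 3000 nt 0.12 against -0.28. Across genes, which share libraries and are not replicates, Spearman's rho of the change with length was -0.53 over the 42 members and -0.33 over all tested genes. After a loess trend with length had been removed, 2 members were called, Coa8 and Cox17, and the median of the members was 0.31 beside 0.05 for all genes, of which 1172 were called higher and 532 lower of 12725. Cox17 moved from 0.89 to 1.10 on the log2 scale, which rests on its longest transcript of 3690 nt, and whether that is its main transcript was not tested. The log2 fold changes of the members no longer called fell to 1.09 for Uqcc3 (limma adjusted p = 0.0597), 0.72 for Cox14 (0.0927), 0.55 for Surf1 (0.089) and 0.40 for Cox20 (0.151). Those of Surf1 and Cox20 were then also under the 0.58 of a 1.5-fold change.

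**Figure D4:**
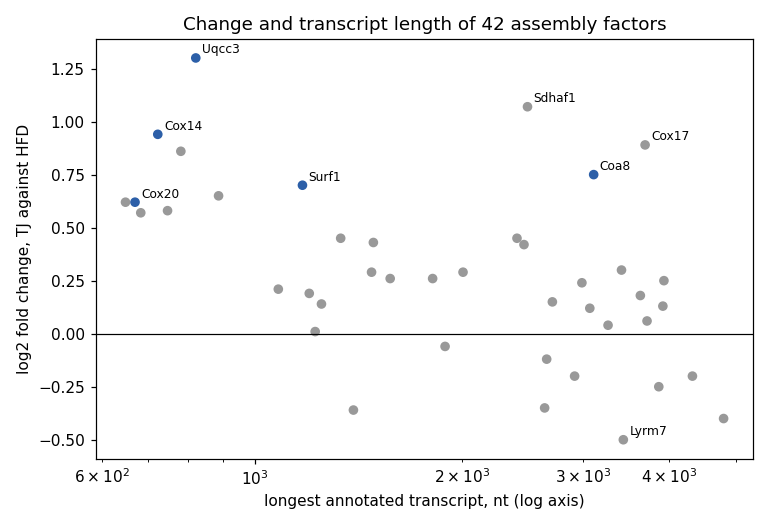
Log2 fold change of TJ against HFD for the 42 tested members against the length of the longest annotated transcript, on a log axis. Blue marks the 5 called members, and 3 of them are shorter than 1000 nt.

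Other genes of OXPHOS were read beside the assembly factors in the same fit. Of 82 structural subunits, 31 (37.8%) were called higher and 0 lower in TJ against HFD, beside 7.41% and 11.1% of all tested genes. Their median log2 change was 0.77, beside -0.14 over all tested genes. The assembly factors had the lower median and share of calls, though no test of the difference between the lists was made. The lists were not matched for transcript length or level. In HFD the subunits summed to 8924 to 9744 FPKM and the members to 731 to 828 FPKM. Of 21 other genes of assembly, 5 (23.8%) were called higher and 0 lower, beside 7.41% and 11.1% of all tested genes. The 5 were Higd2a (1.01), Dmac1 (0.87), Cmc2 (0.78), Smim20 (0.68) and Cmc1 (0.66 on the log2 scale). Hccs, which attaches heme to cytochrome c, had the lowest value, -0.31. Of 12 listed regulators of mitochondrial biogenesis, 10 were tested, and Ppargc1a (PGC-1α) and Ppargc1b were left out because their means were under 1 FPKM. Of the 10, 1 fell, beside 11.1% of all tested genes called lower. This was Pprc1, a relative of PGC-1α, by 0.77 on the log2 scale (limma adjusted p = 0.0323). Polrmt, the mitochondrial RNA polymerase, had the highest value of this list, 0.26, and Gabpa, an ETS family factor, was at -0.73 (limma adjusted p = 0.076).

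GT was compared with HFD to ask whether the extract changed the same genes. No member was called, against 1.83% of the 12766 tested genes called higher and 1.81% called lower. The median log2 fold change was 0.00 over the members, 21 above 0 and 21 below, and -0.12 over all tested genes. The groups did not overlap for 4 members with GT higher and 6 with GT lower, beside 12.3% and 24.4% of all tested genes. Of the members, 5 had an unadjusted p under 0.05, beside 29.3% of all tested genes. Lyrm7 was the lowest, at -0.82, with every GT library below every HFD library (limma adjusted p = 0.0668). Coa7 was the highest, at 0.45, with GT replicates 2 and 3 above every HFD library and GT replicate 1 below them. Nubpl had a log2 fold change of 0.42, with GT above HFD in every library, and did not pass the threshold (limma adjusted p = 0.0993).

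Of the 82 subunits, 0 were called higher and 4 lower in GT, beside 1.83% and 1.81% of all tested genes. Of the 21 other genes of assembly and the 11 regulators tested, 0 were called in either direction.

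TJ and GT were also compared directly, which tests the difference between the effects of the additions. No member was called, against 0.139% of the 12187 tested genes called higher and 0.00821% called lower. The median log2 fold change was 0.30 over the members and -0.03 over all tested genes. An unadjusted p under 0.05 was reached by 18 members, 17 higher and 1 lower in TJ, beside 24.6% of all tested genes. Spearman's rho of the change with transcript length was -0.63 over the members and -0.49 over all tested genes, and with the length trend removed 4 members were at that unadjusted p, with a median of 0.10 over the members and 0.00 over all genes. Sdhaf1 (1.21), Uqcc2 (1.09), Cox17 (1.08) and Ndufaf8 (1.05) had the highest log2 fold changes and Cox15 the lowest, at -0.76. The groups did not overlap for 20 members with TJ higher and 2 with TJ lower, beside 19.5% and 14.9% of all tested genes. The 4 comparisons share libraries, so their values are not independent of each other.

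HFD was compared with ND for the effect of the diet itself. No member was called, and 0 had an unadjusted p under 0.05, beside 1.73% of the 14430 tested genes called higher, 0.0416% called lower and 11.6% at that unadjusted p. The median log2 fold change was -0.10 over the members and 0.07 over all tested genes. The groups did not overlap for 7 members with HFD higher and 4 with HFD lower, beside 20.5% and 5.89% of all tested genes. The lowest were Ndufaf3 (-1.93), Uqcc2 (-1.76) and Ndufaf2 (-1.07), and the highest were Acad9 (0.88), Cox15 (0.75) and Cox11 (0.69). Without ND replicate 1 the log2 fold changes were -0.51 for Ndufaf3, -0.02 for Uqcc2 and -0.36 for Ndufaf2, and 0.46 for Acad9, 0.21 for Cox15 and 0.46 for Cox11, and the lowest member was Nubpl.

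The ND mean of these genes rested on ND replicate 1. It held 1679 FPKM of Uqcc2 against 41.9 and 45.8 FPKM in ND replicates 2 and 3, and 339.5 FPKM of Ndufaf3 against 9.96 and 27.4 FPKM. Ndufaf8 was at 95.3 FPKM there against 5.67 and 8.98 FPKM, and Ndufaf2 at 113.4 FPKM against 20.1 and 32.1 FPKM. Lyrm7 stood at 28.9 FPKM against 3.16 and 5.86 FPKM. Other members were low in the same library, such as Coa5 at 16.7 FPKM against 60.4 and 49.9 FPKM. The part of testis or epididymis RNA in these levels was not tested.

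**Figure D5:**
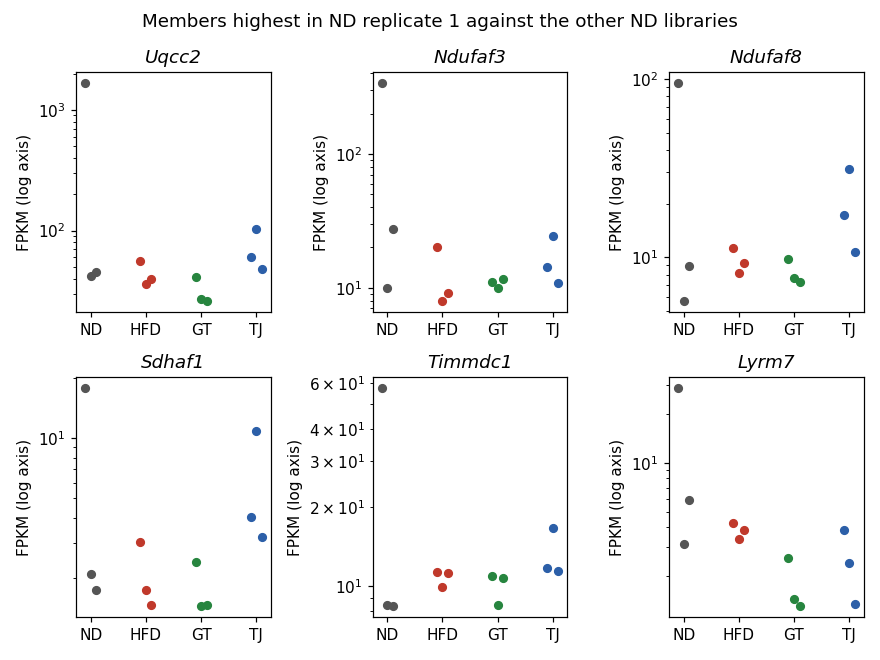
FPKM on a log axis, with a point per library, for the 6 members with the highest ratio of ND replicate 1 to the mean of ND replicates 2 and 3. That ratio was 38.3 for Uqcc2 and 18.2 for Ndufaf3, and the other ND libraries lie among those of HFD, GT and TJ or near them.

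Without ND replicate 1, limma called 11% of 13661 tested genes higher and 4.34% lower in HFD. Of the members, 1 was then called: Nubpl, which was lower in HFD by a log2 fold change of -0.93 ± 0.22 (SE; limma adjusted p = 0.0464). It measured 5.75, 4.65 and 4.40 FPKM in HFD and 12.4 and 8.46 FPKM in the other 2 ND libraries, while ND replicate 1 was at 4.62 FPKM. The groups did not overlap for 10 members with HFD higher and 7 with HFD lower, beside 28% and 19.2% of all tested genes. The median over the members was then 0.05, and 6 had an unadjusted p under 0.05, beside 30.8% of all tested genes. Ndufaf7 (-0.44), Surf1 (-0.41), Atpaf1 (-0.53) and Coa8 (-0.54) were the other members with lower values at that level and Acad9 (0.46) the only higher one, none of them past the adjusted threshold. Of the 8 adipocyte markers 5 were called lower and 1 higher in this fit, all 9 macrophage markers and 4 of the 6 stromal markers were called higher, and 3 of the 4 mesothelial markers were called lower. Their part in the result was not tested.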

How the data were processed

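eWAT RNA was sequenced in 12 libraries. The deposited values are FPKM, which the authors computed with Cufflinks from reads mapped with STAR. The submitters' processing notes name CASAVA 1.8.2, STAR 2.4.0 and Cufflinks 2.1.1. The study's methods name another STAR release and mapping to the human genome, whereas all 23474 identifiers in the table are of mouse genes. The authors' count-based test was not used here. FPKM hold no counts, so log2(FPKM + 1) was tested with limma 3.58.1 (lmFit, eBayes with a mean-variance trend; R 4.3.3) on the 6 libraries of each comparison, for genes whose mean there reached 1 FPKM, and without covariates. The threshold was a Benjamini-Hochberg adjusted p of 0.05 over all tested genes and a 1.5-fold change. With 3 libraries against 3, an exact permutation test cannot give a two-sided p below 0.1. The test was also run on simulated data, with noise drawn independently for each gene. That simulation held no shift shared between genes, such as one with transcript length or cell composition. Tables were handled in python 3.11.15 with pandas 2.3.3.

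The members and gene lists were chosen with earlier results of these data known. Each member is named with its levels, and values per library are given for called members and for the 3 highest and 3 lowest in TJ against HFD and in HFD against ND. Names, coordinates and lengths are from GENCODE M21 (GRCm38). Protein sequences were not used here.

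Same-numbered HFD and ND libraries deviated from their group means together, with correlations over all genes of 0.547, 0.342 and 0.122. HFD replicate 3 and ND replicate 2 correlated more strongly, at 0.626, and no source names anything that a number shares. The values reported for this comparison are from the fit without a block. With the replicate block, 0 members and 0 of all tested genes were called, against 0 members and 255 genes without it. Alternatives were other pseudocounts, filters, scalings and fits, and each library left out in turn.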

Additional observations from a re-analysis of the deposited data

Results flagged for a closer look

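Cox17 was the only tested member whose TJ libraries all lay above HFD while its GT libraries all lay below it, a pattern found in 0.775% of the 12649 genes tested in both comparisons. The log2 fold change of GT against HFD was -0.18 (limma adjusted p = 0.276), and -0.05 with the length trend removed. The difference between TJ and GT was 1.08 on the log2 scale and did not pass the threshold (limma adjusted p = 0.116).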

How the results depend on the processing

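In TJ against HFD, 5 members were called. The count was 9 with quantile normalization, where calls higher over all genes rose from 949 to 1538, 2 without the mean-variance trend (840 higher and 1228 lower over all genes) and 2 with the length trend removed. It was 0 without a filter (198 higher and 184 lower of 20343 genes), with all 12 libraries in the fit (1 and 0 of 12807) and with the replicate block (429 and 769 of 12807), where the numbers did not pair the libraries. With each library left out it ranged from 0 to 9. In GT against HFD it was 1, Nubpl, with quantile normalization (403 higher and 160 lower of 12766 genes) and 3 with array weights (over all genes 520 higher and 1069 lower, from 233 and 231). With libraries left out it was 0 to 2. The 2 came without GT replicate 1 (375 higher and 732 lower of 12834 genes), and the other such fits called 1 to 39 genes higher and 3 to 27 lower. In HFD against ND the count was 5 with array weights (2114 higher and 3943 lower of 14430 genes, from 255 in either direction), and 0 to 1 with libraries left out. The 1 came without ND replicate 1 (1505 higher and 593 lower of 13661 genes), and the other such fits called 0 to 24 genes higher and 0 lower. In TJ against GT the count of members was 10 with array weights (993 higher and 666 lower of 12187 genes, from 17 and 1). The estimate of the array weights stopped before it converged. The median over members was 0.43 with quantile normalization in TJ against HFD, beside 0.03 over all genes. With libraries left out it was 0.13 to 0.34 (all genes -0.20 to -0.10). In GT against HFD it was 0.10 with median-of-ratios scaling, 0.14 with quantile normalization and 0.15 with the length trend removed. The median over all genes moved there from -0.12 to -0.02, 0.03 and 0.02. In HFD against ND the members' median was -0.30 with median-of-ratios scaling, where that of all genes moved from 0.07 to -0.12. It was 0.25 with the length trend removed (all genes 0.06), and -0.18 to 0.05 with libraries left out (all genes -0.02 to 0.20). In TJ against GT it was 0.10 with the length trend removed (all genes 0.00). With libraries left out it was 0.18 to 0.37 (all genes -0.08 to 0.01), lowest without TJ replicate 2. The cause of these changes was not tested. In TJ against HFD, 34 of 42 members kept the sign of their log2 fold change in all 17 alternatives. Of these 17, Coa8 was called in 10, Uqcc3 in 9, Cox14 in 7, Cox20 in 6 and Surf1 in 6. Their highest adjusted p was 0.14, 0.278, 0.271, 0.298 and 0.279, and their lowest 0.0163, 0.0205, 0.0255, 0.0271 and 0.0232. With array weights, Lyrm7 was called lower (-0.88). In the comparisons other than HFD against ND, the replicate block was fitted although not every same-numbered pair of libraries deviated together, with correlations from -0.213 to 0.371. Depth is known only approximately, and no counting error could be given.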
